A study of Mus musculus with 27 samples.

Results

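Wnt ligands are secreted, lipid-modified proteins with which cells of the early embryo signal to their neighbours. The 9 ligand genes described here are Wnt3, Wnt3a, Wnt5a, Wnt5b, Wnt6, Wnt7b, Wnt8a, Wnt9a and Wnt11, taken by their symbols from a table of 23604 genes measured in 19 bulk RNA-seq libraries of mouse pluripotent stem cells, and all 9 were found. The other 10 Wnt genes of the mouse are in the same table and are used for comparison. The study asked whether a formative pluripotent state, between the naive and the primed one, can be held in culture, and all of its cells are labelled as wild type.

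The naive cells were mESCs grown without feeders in N2B27 medium with the MEK inhibitor PD035901 (1 uM), the GSK3 inhibitor Chir99021 (3 uM) and 1000 units/ml hLIF (2 libraries). EpiLCs, which are epiblast-like cells derived from mESCs, were kept in N2B27 with 1% KSR (a serum replacement), Activin A (20 ng/ml) and bFgf2 (12 ng/ml) (2 libraries). Epiblastoids were mESCs embedded in Matrigel in that same medium for 2, 3 or 4 days (1 library for each day). The fPSCs, or formative pluripotent stem cells, are Epiblastoids made stable in Matrigel by XAV939, in N2B27 with the same doses of Activin A and bFgf2. Of them there was 1 library at passage 1 (P1), 3 at P10, P20 and P30, and 4 labelled by the mESC line of origin (CMT at P11, 46C at P24, BVSC at P14 and ROSAmTmG at P12), while 2 more came from fPSCs derived from E5.5 and E6.5 epiblasts, both at P10. The primed cells were EpiSCs on mitomycin-inactivated mouse embryonic fibroblast feeders with 15% KSR, the same doses of both growth factors and XAV939 at 5 uM (2 libraries). The fPSC labels give XAV939 as 5 uM, except for the 4 libraries labelled by line and the single-cell samples. The labels of these write mM for this and other inhibitors. By the study the fPSCs at P1, P10, P20 and P30 are of the CMT line as well. The CMT library at P11 is from a cryopreserved stock. Though labelled as wild type, the 46C, BVSC and ROSAmTmG lines carry reporter genes by the study. For the groups of 2 libraries nothing in the labels says that they came from separate cultures, so their spread may be technical. The 7 fPSC libraries from P10 on differ in passage and come from 4 lines, so their spread includes both.

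In the canonical branch of the pathway a Wnt ligand binds a Frizzled receptor and an Lrp co-receptor, the destruction complex of Axin, Apc and GSK3 stops degrading β-catenin, and β-catenin turns on target genes together with Tcf and Lef factors. Chir99021 acts inside the cell in the same direction as a ligand, and XAV939 acts in the opposite one, by inhibiting tankyrases and so stabilizing Axin. Wnt3, Wnt3a and Wnt8a are known as canonical ligands, Wnt3 being needed in the mouse epiblast for the primitive streak to form. Wnt5a, Wnt5b and Wnt11 are known chiefly for β-catenin-independent signalling in cell polarity and movement. Wnt6, Wnt7b and Wnt9a are best known from later tissues.

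The promoters of 6 of the 9 genes were found among RefSeq sequences (build GRCm38.p6), which reach from 250 bases before to 50 bases after each annotated start. Wnt5a, Wnt7b and Wnt8a had no entry. Of the 9 entries of these genes, 5 are printed. Among these the chromatin marks described later set Wnt3 and the inner Wnt5b start apart from Wnt3a, Wnt11 and the outer Wnt5b start. Capitals mark each CG dinucleotide, the site of DNA methylation, and every sequence matched the NCBIM37 (mm9) genome at 1 position.
Wnt3, chr11:103773925-103774224, plus strand: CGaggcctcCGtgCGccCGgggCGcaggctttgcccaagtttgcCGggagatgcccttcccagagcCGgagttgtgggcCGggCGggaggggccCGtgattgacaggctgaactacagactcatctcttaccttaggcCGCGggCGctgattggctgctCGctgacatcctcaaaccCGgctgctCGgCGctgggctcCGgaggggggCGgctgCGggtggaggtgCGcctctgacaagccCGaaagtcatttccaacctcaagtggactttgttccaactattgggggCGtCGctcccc
Wnt3a, chr11:59290702-59291001, minus strand: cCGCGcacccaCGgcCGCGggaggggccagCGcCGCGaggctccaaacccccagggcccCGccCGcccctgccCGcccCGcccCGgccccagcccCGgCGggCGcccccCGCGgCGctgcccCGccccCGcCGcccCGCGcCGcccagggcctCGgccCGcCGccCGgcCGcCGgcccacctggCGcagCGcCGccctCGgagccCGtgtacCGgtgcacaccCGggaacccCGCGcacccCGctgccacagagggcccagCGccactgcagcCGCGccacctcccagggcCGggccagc
Wnt11, chr7:98834862-98835161, plus strand: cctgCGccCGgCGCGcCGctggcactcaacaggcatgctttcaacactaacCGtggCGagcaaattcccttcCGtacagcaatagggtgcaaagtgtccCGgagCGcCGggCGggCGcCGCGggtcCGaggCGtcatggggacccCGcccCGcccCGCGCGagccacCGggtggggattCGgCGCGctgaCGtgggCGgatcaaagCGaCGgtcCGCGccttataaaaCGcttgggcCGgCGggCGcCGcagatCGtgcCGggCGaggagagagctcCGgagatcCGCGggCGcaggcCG
Wnt5b inner start, chr6:119449337-119449636, minus strand: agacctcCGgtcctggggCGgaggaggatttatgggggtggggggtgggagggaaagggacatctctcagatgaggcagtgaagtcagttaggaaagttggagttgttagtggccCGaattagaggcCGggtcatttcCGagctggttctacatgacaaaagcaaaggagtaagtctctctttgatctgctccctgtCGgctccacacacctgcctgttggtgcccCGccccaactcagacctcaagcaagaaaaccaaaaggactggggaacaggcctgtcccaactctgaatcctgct
Wnt5b outer start, chr6:119544298-119544597, minus strand: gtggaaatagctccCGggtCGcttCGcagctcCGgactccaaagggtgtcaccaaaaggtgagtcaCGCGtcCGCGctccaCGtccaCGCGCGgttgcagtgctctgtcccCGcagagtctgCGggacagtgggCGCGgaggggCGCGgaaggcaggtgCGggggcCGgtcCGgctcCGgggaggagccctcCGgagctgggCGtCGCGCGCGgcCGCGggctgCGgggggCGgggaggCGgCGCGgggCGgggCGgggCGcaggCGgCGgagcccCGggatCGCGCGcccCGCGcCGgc
The Wnt3 promoter held 24 CG dinucleotides, those of Wnt3a and Wnt11 held 45 each, the inner Wnt5b start held 7 and its outer start 47, against a median of 7 over all 32851 RefSeq promoters. The letters CTTTGAA or CTTTGAT, forms of the core that Tcf and Lef factors bind, were searched on both strands. They were found once each in the Wnt11 promoter and at the inner Wnt5b start. The Wnt3 and Wnt3a windows held neither, and other forms of the core were not searched. The printed Wnt3 letters include such a form, CTTTGTT. Of all promoters of this length 8.65% held 1 of them or both, and a match is a description of the letters only.

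Expression was deposited as FPKM, fragments scaled by transcript length and library size, which can be compared between genes. Groups were compared with limma on log2(FPKM + 1) in 1 fit of mESCs, EpiLCs, EpiSCs and the 7 fPSC libraries from P10 on. A gene was called at a Benjamini-Hochberg adjusted p under 0.05 over 12513 genes and a fold of at least 1.5 on that scale, which understates the change of low genes. Of the 9 ligands 7 passed the filter of 1 FPKM in 2 libraries, while Wnt3a and Wnt6 did not. Wnt5a, Wnt7b and Wnt9a passed it through the EpiSC libraries alone, so their calls against EpiSCs follow in part from the filter. The labels were checked against markers. All 7 naive genes of a list that includes Zfp42 and Esrrb fell in EpiLCs, EpiSCs and fPSCs, and the 4 formative genes Otx2, Dnmt3b, Fgf5 and Pou3f1 rose in EpiLCs and fPSCs. Depth relative to the P1 library, read from the steps between low values, ran from 0.886 to 2.48, the highest being day 4 Epiblastoids, with 1.51 to 1.63 in the fPSCs labelled by line. In bulk RNA fewer cells of a type and less RNA per cell cannot be told apart.

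The ligand repertoire differed in size and in its leading gene between the states. Summed over all 19 Wnt genes, the level was 3.30 and 5.85 FPKM in the mESC libraries and 3.86 and 6.59 FPKM in the EpiLC libraries. It was 11.3, 37.7 and 68.7 FPKM in Epiblastoids on days 2, 3 and 4, and 10.9 FPKM in fPSCs at P1. In the 7 later fPSC libraries it ranged from 29.8 to 55.1 FPKM, and in the EpiSC libraries it reached 114 and 173 FPKM. The 9 ligands held between 86.7% and 98.6% of these sums, the lowest share being in day 4 Epiblastoids. Wnt11 was the highest Wnt gene in both mESC libraries, with 33.2% and 34.5% of the sum. Wnt3 led in EpiLCs, in Epiblastoids on each day, in P1 fPSCs and in both epiblast-derived lines. Among the 7 fPSC libraries Wnt3 led in P10, P20 and ROSAmTmG, and Wnt8a in the other 4. Wnt7b held 65.3% and 71.6% of the sum in EpiSCs and did not exceed 0.517 FPKM in any library of another group.

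**Figure D1:**
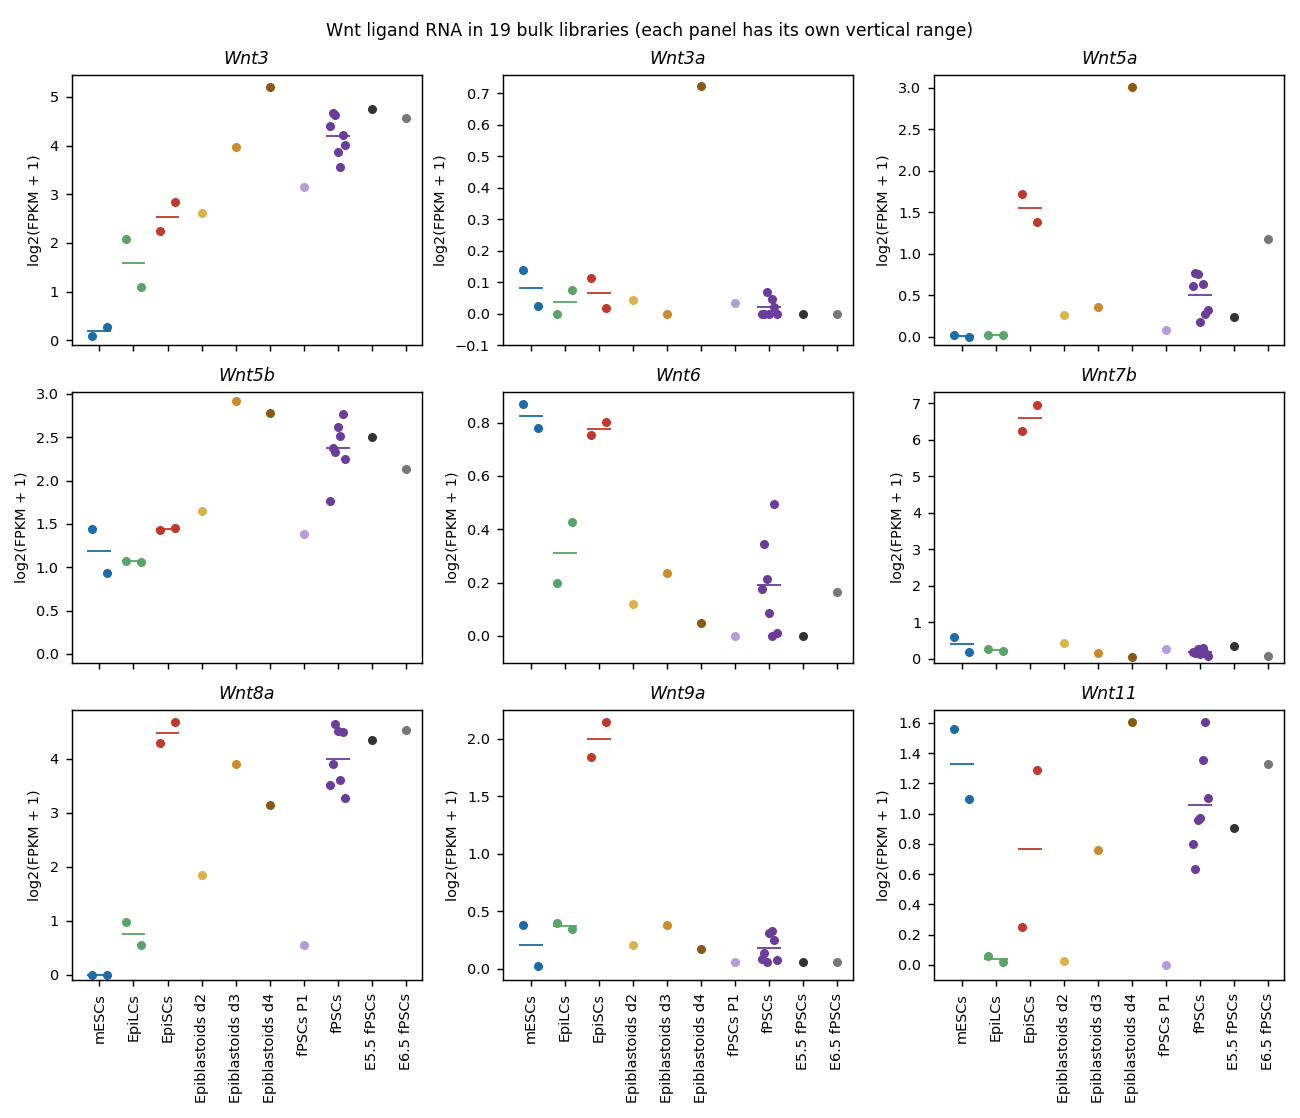
RNA of the 9 Wnt ligands in 19 bulk libraries as log2(FPKM + 1) on the vertical axis, by group on the horizontal axis; each point is 1 library, bars are means of groups with at least 2 libraries, and each panel has its own vertical range. Wnt3 lies between 10.8 and 24.4 FPKM in the 7 fPSC libraries, above all mESC, EpiLC and EpiSC libraries, and Wnt7b is high in EpiSCs alone, at 74.2 and 124 FPKM.

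Wnt3 was higher in each of the other 3 groups than in naive mESCs, and its highest levels were those of day 4 Epiblastoids and fPSCs. It measured 0.0636 and 0.215 FPKM in mESCs, 3.22 and 1.13 FPKM in EpiLCs and 3.73 and 6.11 FPKM in EpiSCs. The fPSCs at P10, P20 and P30 had 20.1, 24.4 and 23.6 FPKM. Those labelled by line had 13.7 (CMT), 10.8 (46C), 17.7 (BVSC) and 15.2 FPKM (ROSAmTmG). The lowest fPSC library was thus above the highest EpiSC library, and the mESC libraries lay below all others. Against mESCs the log2 change was 1.40 (SE 0.398, adjusted p = 0.0176) in EpiLCs and 2.35 (SE 0.398, adjusted p = 0.000363) in EpiSCs. It was 4.01 (SE 0.319, adjusted p = 4.24e-07) in fPSCs. Wnt3 was also higher in fPSCs than in EpiLCs, by 2.61 (SE 0.319, adjusted p = 9.17e-05), and than in EpiSCs, by 1.66 (SE 0.319, adjusted p = 0.0016). EpiSCs and EpiLCs were not separated by the test (0.95, 95% interval 0.0884 to 1.82, adjusted p = 0.0782), though without EpiLCs replicate 1 they were (1.45, adjusted p = 0.0303). The EpiLC call was lost without mESCs replicate 1, mESCs replicate 2 or EpiLCs replicate 1. These comparisons share groups, so the ligand's values in each are not independent.

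Within the fPSCs Wnt3 differed between the libraries labelled by passage alone and those labelled by line. The former had 22.7 ± 2.27 FPKM (SD, n = 3) and the latter 14.3 ± 2.88 FPKM (SD, n = 4), and the ranges did not overlap. The CMT line is in both sets, with 13.7 FPKM at P11 in the second against 20.1 FPKM at P10 in the first. Line, passage, cryopreservation and depth differ between the sets and cannot be told apart. The share of all genes whose ranges lie apart in this way was not counted. Wnt11 ranges lay apart as well, in the other direction, at 0.549 to 0.943 FPKM in the first set and 0.961 to 2.04 FPKM in the second. For Wnt3 each set was called above EpiSCs by limma in a fit without the other. The log2 changes were 2.03 (adjusted p = 0.000615) and 1.38 (adjusted p = 0.00337), in that order. The epiblast-derived fPSCs had 25.8 (E5.5) and 22.6 FPKM (E6.5), the first above and the second within the range of the fPSCs derived from mESCs. In order of group mean, day 4 Epiblastoids (35.9 FPKM) stood first, followed by E5.5 and E6.5 fPSCs, the 7 fPSC libraries (17.9 ± 5.08 FPKM, SD, n = 7), day 3 Epiblastoids (14.6 FPKM), P1 fPSCs (7.85 FPKM), day 2 Epiblastoids (5.15 FPKM), EpiSCs, EpiLCs and mESCs. E6.5 fPSCs and day 3 Epiblastoids lie within the range of the fPSC libraries, and day 2 Epiblastoids lie within the range of EpiSCs.

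Wnt8a, a ligand of the early primitive streak, was listed at 0 in both mESC libraries. It measured 0.976 and 0.457 FPKM in EpiLCs and 18.6 and 24.6 FPKM in EpiSCs. The fPSCs at P10, P20 and P30 had 10.4, 14.03 and 24.2 FPKM. Those labelled by line had 21.9 (CMT), 11.2 (46C), 21.7 (BVSC) and 8.68 FPKM (ROSAmTmG). EpiSCs and fPSCs were both called above mESCs (adjusted p = 2.91e-06 and 1.02e-06), with no fold given because the reference is at 0. Against EpiLCs the log2 change was 3.72 in EpiSCs (SE 0.435, adjusted p = 2.87e-05) and 3.24 in fPSCs (SE 0.349, adjusted p = 2.98e-05). Between fPSCs and EpiSCs the ranges overlapped, and the difference of -0.49 had a 95% interval from -1.24 to 0.27 (adjusted p = 0.293). EpiLCs did not pass the test against mESCs (adjusted p = 0.212), but did with a pseudocount of 0.1 (adjusted p = 0.000682). At P1 Wnt8a was 0.459 FPKM, while Wnt3 was 7.85 FPKM there.

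Wnt3a, the close paralogue of Wnt3, stayed at or below 0.101 FPKM in 18 libraries and was 0.651 FPKM in day 4 Epiblastoids. It was listed at 0 in 4 of the 7 fPSC libraries and in both epiblast-derived ones. Its highest fPSC value was 0.0483 FPKM, in P30, beside 23.6 FPKM of Wnt3.

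Among the ligands known for β-catenin-independent signalling, Wnt5b was present in every library and highest in day 3 and day 4 Epiblastoids and in fPSCs from P10 on. It measured 1.72 and 0.906 FPKM in mESCs, 1.10 and 1.09 FPKM in EpiLCs and 1.68 and 1.73 FPKM in EpiSCs. The 7 fPSC libraries ranged from 2.39 to 5.84 FPKM with a median of 4.19 FPKM, so none overlapped with these 3 groups. The log2 change of fPSCs was 1.19 against mESCs (SE 0.232, adjusted p = 0.00108), 1.31 against EpiLCs (SE 0.232, adjusted p = 0.00189) and 0.94 against EpiSCs (SE 0.232, adjusted p = 0.00773). The call against EpiSCs was lost when either EpiSC library was left out. EpiLCs and EpiSCs did not pass the test against mESCs, with 95% intervals of -0.75 to 0.51 and -0.38 to 0.88.

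Wnt11, which guides cell movement in gastrulation, was lower in EpiLCs than in mESCs. It was 1.94 and 1.14 FPKM in mESCs and 0.0417 and 0.0119 FPKM in EpiLCs, a log2 change of -1.29 (SE 0.34, adjusted p = 0.0116). It was at 0.0182 FPKM in day 2 Epiblastoids and listed at 0 in P1 fPSCs. Later fPSCs held 0.549 to 2.04 FPKM, with a median of 0.961 FPKM, and were above EpiLCs by 1.02 (SE 0.273, adjusted p = 0.0227). This last call was lost without either EpiLC library, with the P10, P20 and P30 libraries as the only fPSCs (0.76, adjusted p = 0.0621) and with only fPSCs of the CMT line (0.80, adjusted p = 0.0532). The EpiSC libraries lay far apart, at 0.191 and 1.44 FPKM, and passed no test as a group. Without the first they were called above EpiLCs (1.25, adjusted p = 0.0236), and without the second below mESCs (-1.08, adjusted p = 0.0339). The EpiLC fall was lost without mESCs replicate 1, EpiLCs replicate 1 or EpiLCs replicate 2.

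Wnt5a was near 0 in mESCs (0.0167 and 0 FPKM) and EpiLCs (0.013 and 0.0173 FPKM). It measured 2.29 and 1.61 FPKM in EpiSCs and 0.13 to 0.708 FPKM in the 7 fPSC libraries. Wnt5a passed the filter through the EpiSC libraries alone, so its calls against EpiSCs follow in part from the filter. EpiSCs were above mESCs by 1.54 (SE 0.203, adjusted p = 4.54e-05) and fPSCs below EpiSCs by a log2 change of -1.05 (SE 0.163, adjusted p = 0.000323). The difference of 0.49 between fPSCs and mESCs had an adjusted p of 0.0258 and was under the fold limit, so it was not called. It was called with a pseudocount of 0.1 (2.17, adjusted p = 0.00161) and with the P10, P20 and P30 libraries as the only fPSCs (0.70, adjusted p = 0.00129).

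Wnt7b, Wnt9a and, at a lower level, Wnt5a were highest in EpiSCs among the 4 groups compared. Wnt7b, best known from lung, kidney and nervous system, measured 74.2 and 124 FPKM in EpiSCs. In mESCs it was 0.517 and 0.141 FPKM, in EpiLCs 0.208 and 0.162 FPKM, and in the 7 fPSC libraries 0.0529 to 0.228 FPKM. The log2 change of EpiSCs was 6.20 against mESCs (SE 0.214, adjusted p = 1.93e-10) and 6.35 against EpiLCs (SE 0.214, adjusted p = 4.71e-10). That of fPSCs against EpiSCs was -6.41 (SE 0.172, adjusted p = 2.94e-11). Wnt9a measured 2.58 and 3.43 FPKM in EpiSCs and at most 0.316 FPKM in the other 17 libraries, with a log2 change of -1.82 in fPSCs against EpiSCs (SE 0.122, adjusted p = 1.44e-07). Without either EpiSC library, Wnt5a, Wnt7b and Wnt9a no longer reach 1 FPKM in 2 libraries of the fit and are not tested. The calls of these ligands against EpiSCs thus follow in part from the filter.

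The EpiSCs were the only cells grown on fibroblast feeders, and the sum of feeder markers was highest in the same libraries. The summed level of 12 fibroblast genes was 214 and 284 FPKM in EpiSCs, with 8 and 9 genes at 1 FPKM or more and none of the 12 under 0.1 FPKM. In the other 17 libraries the sum ran from 1.61 to 32.4 FPKM, the highest being day 4 Epiblastoids, where Pdgfra alone had 20.1 FPKM. Col1a1, a main fibroblast collagen, was at 132 ± 29.2 FPKM in EpiSCs (SD, n = 2) and 0.178 ± 0.145 FPKM in fPSCs (SD, n = 7). Of the 12 genes 8 were tested, and all 8 were called higher in EpiSCs than in mESCs, beside 23.1% of all genes. At most 3 of the 12 reached 1 FPKM in any mESC, EpiLC or fPSC library of the fit. The counts thus follow in part from the filter. Against EpiLCs 6 of the 8 were called higher in EpiSCs, beside 20.4% of all genes. Dcn was called lower, from a mean of 5.29 FPKM in EpiLCs. In fPSCs against EpiSCs 7 of the 8 were called lower, all but Thy1, beside 19% of all genes. The part of feeder RNA in the EpiSC levels of Wnt5a, Wnt7b, Wnt9a and Wnt8a was not tested, and culture on feeders cannot be told apart from the primed state in these libraries.

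Wnt6 was low everywhere. It was 0.828 and 0.718 FPKM in mESCs, 0.146 and 0.346 FPKM in EpiLCs, 0.685 and 0.742 FPKM in EpiSCs and 0 to 0.409 FPKM in the 7 fPSC libraries. Its fPSC and EpiLC values lay below those of mESCs and EpiSCs without overlap, but Wnt6 did not pass the filter and no test is given.

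Counted over the ligands tested, 1 rose (Wnt3) and 1 fell (Wnt11) of 7 in EpiLCs against mESCs, where 29.6% of all genes tested were called, 12.2% higher and 17.4% lower. In fPSCs against mESCs 3 of 7 rose (Wnt3, Wnt5b and Wnt8a), beside 40.3% of all genes called, 17.3% higher and 23% lower. In fPSCs against EpiLCs 4 of 7 rose (Wnt3, Wnt5b, Wnt8a and Wnt11), beside 13.8% called, 5.66% higher and 8.15% lower. For the comparisons with EpiSCs the count is over the 4 ligands that reach 1 FPKM in 2 libraries of other groups (Wnt3, Wnt5b, Wnt8a and Wnt11). In EpiSCs against mESCs 2 of these 4 rose (Wnt3 and Wnt8a), while 47.8% of all genes were called, 23.1% higher and 24.7% lower. In EpiSCs against EpiLCs 1 of 4 rose (Wnt8a), beside 35.9% called, 20.4% higher and 15.5% lower. In fPSCs against EpiSCs 2 of 4 rose (Wnt3 and Wnt5b), beside 32.3% of all genes called, 13.3% higher and 19% lower. Wnt5a, Wnt7b and Wnt9a were called higher in EpiSCs in each of these 3 comparisons, and their number is not read against the background because the filter let them in through EpiSCs.

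**Figure D2:**
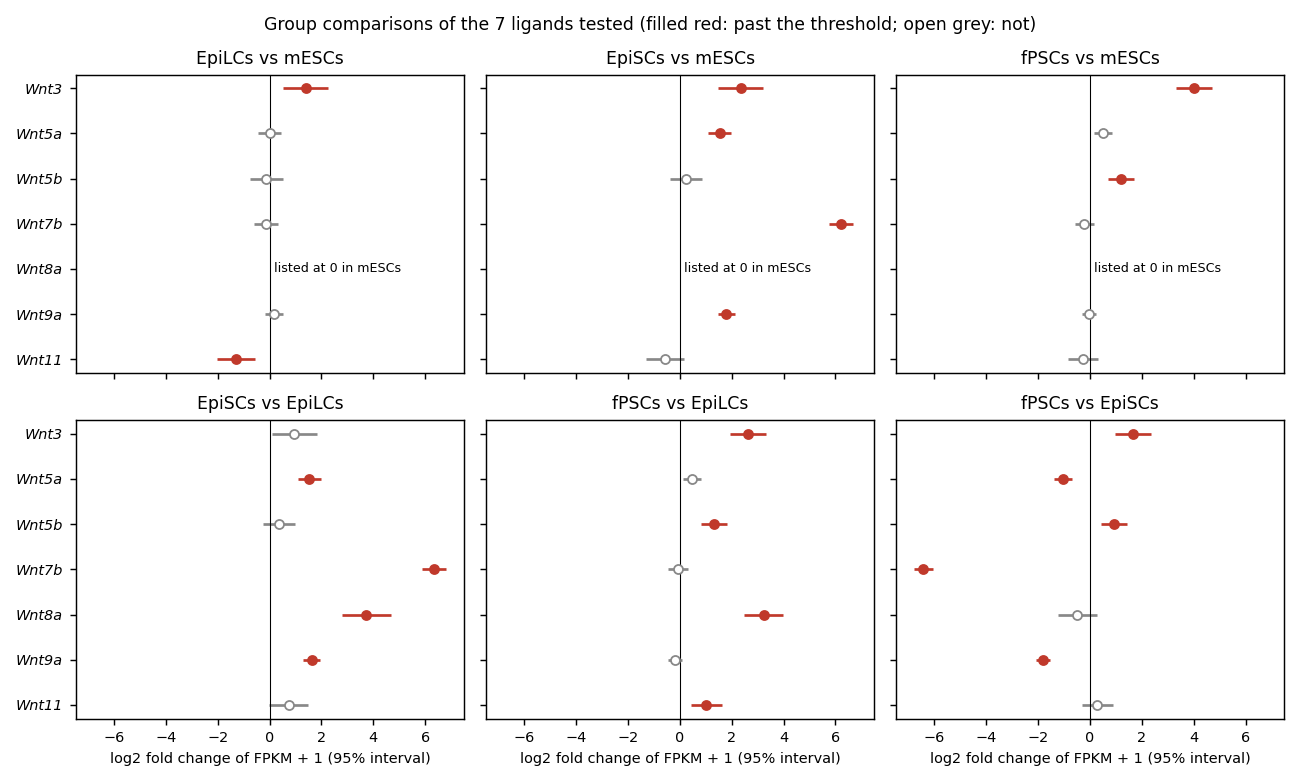
Log2 fold change of FPKM + 1 (horizontal axis, with 95% limma interval) of the 7 ligands tested (vertical axis) in 6 comparisons of groups, each first group minus second; filled red points passed the adjusted p and the fold limit and open grey points did not, and no value is drawn for Wnt8a where mESCs are listed at 0. Wnt7b shows the largest differences of these 7 genes, 6.20 in EpiSCs against mESCs and -6.41 in fPSCs against EpiSCs.

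Over the days of Epiblastoid culture, without XAV939, Wnt3 was higher each day, while Wnt8a and Wnt5b were highest on day 3. There was 1 library for each day, so these are ratios of single libraries without a test. Wnt3 went from 5.15 to 14.6 and 35.9 FPKM on days 2, 3 and 4, and Wnt8a from 2.61 to 14.03 and then 7.85 FPKM. Wnt5b went from 2.13 to 6.58 and 5.86 FPKM. From day 2 to day 3 the log2 ratio was 1.34 for Wnt3, 1.28 for Wnt5b and 2.06 for Wnt8a, so all 3 ligands at 1 FPKM in either library passed a ratio of 1 upwards, where 5.58% of the 11095 genes at 1 FPKM in either library passed it, 3.11% upwards and 2.47% downwards. From day 3 to day 4, 2 of 5 ligands (Wnt3, 1.24, and Wnt5a, 2.65) passed it, where 16.1% of 11357 genes did, 7.85% upwards and 8.22% downwards. The limit of 1 FPKM in either library admits low genes, such as Wnt5a and Wnt11 here, only by their higher day. With a pseudocount of 0.1 Wnt11 passed it too. Wnt5a went from 0.195 and 0.284 FPKM to 7.04 FPKM, its highest level in the 19 libraries, and Wnt11 from 0.0182 and 0.693 to 2.05 FPKM. Wnt8a was lower on day 4 than on day 3 (-0.76) and Wnt5b was nearly level (-0.14). Wnt7b and Wnt9a stayed at or below 0.345 FPKM on all days.

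Markers of other cell fates moved with the day 4 library. The 5 primitive streak genes T, Mixl1, Eomes, Foxa2 and Gata6 summed to 7.79, 52.2 and 528 FPKM on days 2, 3 and 4. The 6 visceral endoderm genes summed to 71.5 FPKM on day 4 and at most 1.73 FPKM before it, of which Sox17, an endoderm factor, was 68.7 FPKM and Afp and Ttr were under 0.1 FPKM. Of the 10 other Wnt genes, Wnt2 and Wnt2b were also high on day 4, at 3.58 and 4.47 FPKM against 0.0512 and 0.276 FPKM on day 3. The part of streak and endoderm cells in the day 4 levels of Wnt3, Wnt5a and Wnt11 was not tested.

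**Figure D3:**
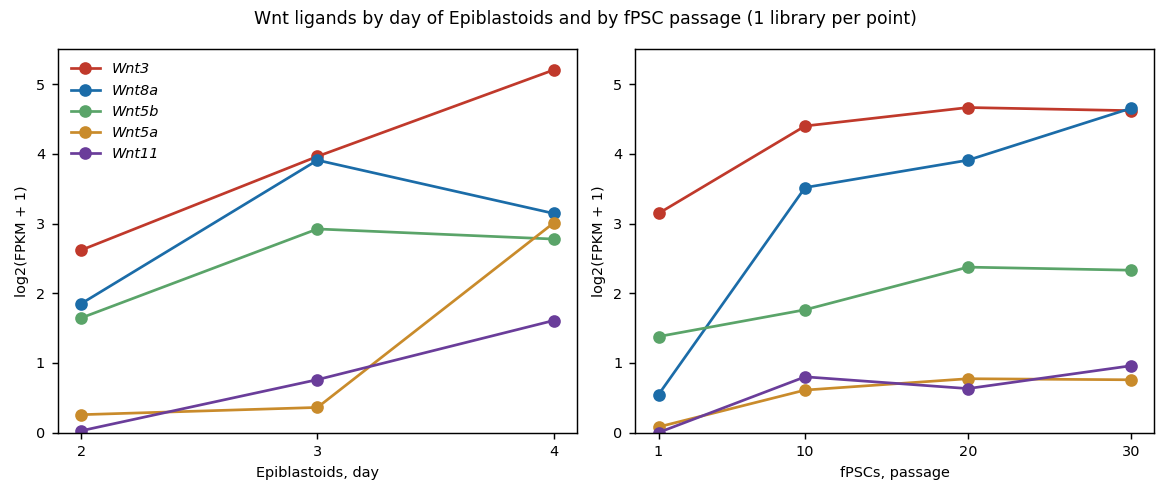
Log2(FPKM + 1) of 5 Wnt ligands (vertical axis) by day of Epiblastoid culture (left) and by passage of fPSCs at P1, P10, P20 and P30 (right); each point is 1 library. Wnt3 goes from 5.15 to 35.9 FPKM over days 2 to 4, and Wnt8a is 0.459 FPKM at P1 and 24.2 FPKM at P30, while the cryopreserved CMT library at P11, which is not drawn, has 21.9 FPKM, above P10 and P20.

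Over the fPSC passages P1, P10, P20 and P30, with 1 library each, Wnt3, Wnt5a, Wnt5b, Wnt6, Wnt8a and Wnt11 were lowest at P1. The share of all genes with this order was not counted. Wnt3 was 7.85 FPKM at P1 and 20.1 to 24.4 FPKM at P10 to P30. Wnt8a was 0.459 FPKM at P1 and 10.4, 14.03 and 24.2 FPKM at P10, P20 and P30. Wnt11 was listed at 0 at P1 and was 0.549 to 0.943 FPKM later. Wnt5b was 1.60 FPKM at P1 and 2.39 to 4.19 FPKM at P10 to P30. Wnt5a was 0.0574 FPKM at P1 and 0.526 to 0.708 FPKM later, and Wnt6 was 0 and then 0.131 to 0.270 FPKM. The primitive streak genes summed to 6.02 FPKM at P1, and to 36.1 to 212 FPKM in the 7 later libraries, with 46C the highest and ROSAmTmG the lowest. The 46C library, whose visceral endoderm genes summed to 72.2 FPKM against at most 17.6 FPKM in the other 6, had the lowest Wnt3 (10.8 FPKM), with Wnt8a at 11.2 FPKM. In this library 3 of the 6 visceral endoderm genes reached 1 FPKM, and Afp was under 0.1 FPKM. The 3 calls in fPSCs against mESCs held without the 46C library. The streak sum was 3.43 to 6.15 FPKM in mESCs, 2.95 to 3.40 FPKM in EpiLCs and 47.1 to 59.0 FPKM in EpiSCs. Of the 5 streak genes, T, Mixl1, Eomes and Foxa2 were called higher in fPSCs than in mESCs and EpiLCs. Of all genes tested, 17.3% and 5.66% were called higher in these comparisons, in that order. Mixl1 and Eomes were also called higher in fPSCs than in EpiSCs, beside 13.3% of all genes. The part of the streak genes in the fPSC levels of Wnt3 and Wnt8a was not tested.

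Ligands had partners in pattern over the 19 libraries, given as Pearson's r of log2(FPKM + 1) among 7833 genes that reached 10 FPKM in any library. Genes most like Wnt3 were Fgf8, a growth factor of the streak (r = 0.953), Inadl (r = 0.946) and Hunk (r = 0.906). Those most like Wnt8a were Cxx1c (r = 0.926), Apln (r = 0.923) and L3mbtl3 (r = 0.914). Those most like Wnt7b were Mical2, Cyp11a1 and Wisp1 (r = 0.998, 0.998 and 0.997), and both EpiSC libraries lie far above the rest in Wnt7b. Between the ligands themselves r was 0.807 for Wnt3 with Wnt5b, 0.778 for Wnt3 with Wnt8a and 0.977 for Wnt7b with Wnt9a. Libraries of 1 group share their culture, so these values describe the 19 libraries and carry no test.

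The machinery that makes and receives ligands was followed by lists, whose counts stand beside the shares of all genes called given above, and a share of a list near or below that is no result about the list. Of the 10 other Wnt genes 3 were tested, Wnt1, Wnt4 and Wnt10b, which reached the limit of 1 FPKM through the EpiSC libraries alone, so that their count and direction against EpiSCs follow in part from the filter. In the EpiSC libraries Wnt1 was 2.81 and 1.32 FPKM and Wnt4 4.13 and 4.32 FPKM, beside the feeder markers given above. Of the secretion genes, Porcn, the acyltransferase that lipidates Wnts, and Wls, which carries them to the surface, were called higher in EpiSCs and in fPSCs than in mESCs. Wls was 1.76 FPKM in mESCs, 1.96 FPKM in EpiLCs, 41.2 FPKM in EpiSCs and 7.24 FPKM in fPSCs as group means, a log2 change of 1.68 in fPSCs (SE 0.36, adjusted p = 0.00207) and of 4.07 in EpiSCs against mESCs (SE 0.449, adjusted p = 9.44e-06). Notum, a secreted enzyme that removes the lipid and is itself a β-catenin target, was 33.8 FPKM in mESCs and under 0.19 FPKM as a mean in EpiLCs, EpiSCs and fPSCs.

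Of 16 receptor genes, all tested, 5 rose and 2 fell in EpiLCs against mESCs, 6 rose in EpiSCs, and 6 rose and 1 fell in fPSCs, beside 29.6%, 47.8% and 40.3% of all genes called. Fzd7, a main Frizzled receptor of pluripotent cells, was at a mean of 5.75 FPKM in mESCs, 47.1 FPKM in EpiLCs, 31.1 FPKM in EpiSCs and 54.0 FPKM in fPSCs. Fzd2 was called higher in the 3 groups as well, while Fzd10 fell in EpiLCs and fPSCs, to 2.57 and 6.89 FPKM from 21.9 FPKM. Of 9 R-spondin genes and receptors 6 were tested, and in fPSCs against mESCs Rspo1, Rspo3 and Lgr4 rose. Of 14 antagonists 9 were tested, and in fPSCs Sfrp2, Frzb and Cer1 rose while Dkk3, Sfrp4 and Apcdd1 fell, again beside 40.3% of all genes. Cer1, an antagonist of Nodal, BMP and Wnt, was listed at 0 in mESCs and had a mean of 43.0 FPKM in fPSCs, with libraries from 2.23 to 203 FPKM.

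Of 20 intracellular genes 19 were tested, and in fPSCs against mESCs Tnks2, Lef1 and Bcl9 rose while Axin2 and Dvl2 fell, 5 of 19 beside 40.3% of all genes. Of 15 target genes 14 were tested in each comparison. In fPSCs against mESCs 4 rose (Lef1, T, Nkd1 and Sp8) and 5 fell (Axin2, Sp5, Notum, Cdx1 and Tnfrsf19), and in EpiSCs 6 rose and 4 fell, beside 40.3% and 47.8% of all genes. In fPSCs against EpiLCs, which have no XAV939, 4 rose (Axin2, T, Tnfrsf19 and Sp8) and Nkd2 fell, beside 13.8% of all genes. Axin2, the standard readout of β-catenin, was at a mean of 2.56 FPKM in EpiLCs and 9.95 FPKM in fPSCs, a log2 change of 1.57 (SE 0.327, adjusted p = 0.00548). Of the 4 groups compared, mESCs, grown with Chir99021, had the highest means of Axin2 (19.8 FPKM), Notum (33.8 FPKM) and Sp5 (38.0 FPKM) beside Wnt sums of 3.30 and 5.85 FPKM. Day 4 Epiblastoids, with a Wnt sum of 68.7 FPKM, had 20.2 FPKM of Axin2 and 72.3 FPKM of Sp5, and 0.329 FPKM of Notum.

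Chromatin was measured in fPSCs at P10 as H3K4me3, a mark of active and poised promoters, and H3K27me3, the Polycomb mark of repressed ones, both as RPKM in bins of 100 bp on mm9, and as the methylated fraction of cytosines in windows of 100 bp. Each mark is in 1 file with no replicate spread. The smallest values, 1.24 and 0.64 RPKM, are those of 1 read in a bin and imply about 8064516 and 15625000 reads. The means below are over 5 kb to each side of the start of each gene, and percentiles are among 22072 protein-coding promoters. Methylation is the mean within 1 kb, with no coverage given in the file.

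Wnt3 and Wnt8a, the ligands highest in fPSCs, had little H3K27me3, and the other 7 were in the top 10% of promoters for it. Wnt5b is counted here by its outer start, with 2.65 RPKM, while its inner start had 0.141 RPKM within 5 kb. Wnt3 (start at chr11:103635464, plus strand, NCBIM37) had 5.37 RPKM of H3K4me3, at percentile 99.5, and 0.18 RPKM of H3K27me3, at percentile 26.0. Wnt8a (chromosome 18, plus strand) had 2.42 RPKM of H3K4me3, at percentile 84.1, and 0.502 RPKM of H3K27me3, at percentile 60.7. The median promoter had 1.13 and 0.379 RPKM.

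The 7 ligands with H3K27me3 had between 2.17 RPKM (Wnt9a, percentile 94.8) and 3.87 RPKM (Wnt3a, percentile 99.0) of it. Wnt7b, at most 0.228 FPKM in fPSCs, had 3.77 RPKM, and Wnt6 and Wnt11 had 3.36 and 3.47 RPKM. Of these 7 promoters, 6 also had H3K4me3 at or above the median of all promoters, a combination of the kind called bivalent. This limit was set here and is not the study's. Of all promoters in the top 10% for H3K27me3, 73% had that much H3K4me3, so 6 of 7 is near the share that goes with H3K27me3 alone, and 7.3% of all promoters had both. Wnt11 and Wnt5a were highest in H3K4me3 among them, at 3.73 and 3.82 RPKM, and their RNA in fPSCs was low, with medians of 0.961 and 0.526 FPKM. The top 10% of promoters for a mark is 10% of all promoters by construction, and the other 10 Wnt genes were all in it for H3K27me3 within 5 kb (9 of 10 within 2 kb), with a median of 3.03 RPKM. Among the 19 Wnt genes, Wnt3 and Wnt8a were the 2 outside it within 5 kb, with Wnt5b taken at its outer start. For H3K4me3, 3 of the 9 ligands (Wnt3, Wnt5a and Wnt11) were in the top 10% within 5 kb, 1 within 2 kb and 0 by the highest 1 kb mean, so that rank depends on the width of the window.

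Wnt5b had several starts with different marks. At its outer start (chr6:119494336, minus strand) the mean within 2 kb was 1.80 RPKM of H3K4me3 and 3.27 RPKM of H3K27me3. At its inner start (chr6:119399404) it was 2.46 and 0.129 RPKM, with a methylated fraction of 0.0521 within 1 kb. Another annotated start (chr6:119417229) had 0.342 and 0.387 RPKM and a methylated fraction of 0.776. The inner start is the one with few CG dinucleotides printed above, 7 against 47. FPKM are given for a gene as a whole, so the start that the 2.39 to 5.84 FPKM of Wnt5b came from was not measured here. The 3 starts of Wnt7b and both starts of Wnt11 and Wnt5a all carried H3K27me3, at 2.14 to 5.03 RPKM within 2 kb.

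DNA methylation was low at the starts. Within 1 kb 8 of the 9 ligands had a mean methylated fraction of 0.2 or less, as 32.5% of all promoters did, and the fractions ran from 0.0143 (Wnt11) and 0.015 (Wnt3) to 0.257 (Wnt5a). Within 500 bp all 9 were below that limit, as 51.6% of all promoters were, and within 2 kb 5 were, as 7.07% of all were. Of the other 10 Wnt genes 9 were below it within 500 bp, 4 within 1 kb and 3 within 2 kb. The stretch of low methylation, whose windows with a value all hold 0.2 or less and may have as many as 3 empty ones between them, was 4500 bp long round the Wnt3 start and 3200 bp round that of Wnt5a, against a median of 700 bp over all promoters, and none of the 9 reached 5 kb, as 0.537% of all promoters did. That of Wnt8a was 1100 bp. Wnt7b (2700 bp) and Wnt6 (3100 bp), both under 0.5 FPKM in every fPSC library, had longer such stretches than Wnt8a, at 8.68 to 24.2 FPKM.

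**Figure D4:**
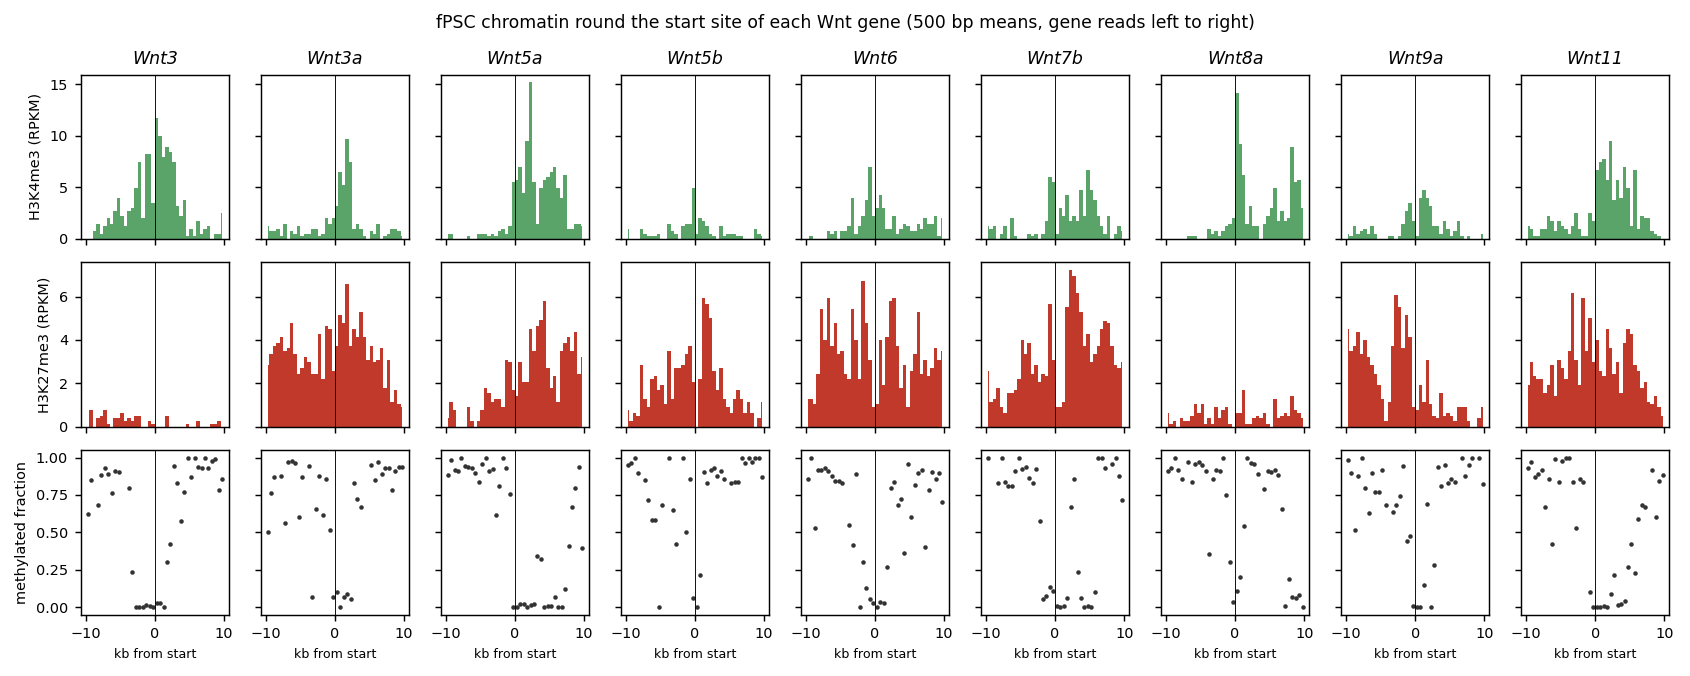
H3K4me3 (top, RPKM), H3K27me3 (middle, RPKM) and the methylated fraction (bottom, 0 to 1) in fPSCs within 10 kb of the start of each ligand gene, as means over 500 bp, with the gene reading to the right and 1 vertical scale per row. Wnt3 and Wnt8a have H3K4me3 with little H3K27me3 (0.18 and 0.502 RPKM within 5 kb), and the other 7 genes carry between 2.17 and 3.87 RPKM of H3K27me3. Wnt5b is drawn at its outer start.

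Single fPSCs of 4 clones were sequenced, 192 cells by the labels, of which the tables hold 182 and 181 had at least 500 genes detected. The 2 tables share no cell name, and 1 name appears on 2 columns with different counts, both used. Cells had a median of 19078 to 33883 counts per clone. Counts of Wnt3 were found in 21.7%, 42.2%, 30.4% and 31.8% of cells of clones 1 to 4, with overlapping 95% exact binomial intervals that reached from 10.9% to 57.8% in all. Over the 4 clones this was 57 of 181 cells, and the clones' summed counts held 26.3 to 44.9 CPM (counts divided by the total and scaled alike in each clone) of Wnt3. Wnt5b was found in 17.4%, 22.2%, 21.7% and 9.09% of cells, 32 of 181 in all, with 3.27 to 15.3 CPM. Of the cells with a count, 20 had both, 37 Wnt3 alone and 12 Wnt5b alone.

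The other ligands were scarce in single cells. Wnt8a was counted in 4 of 181 cells, 11 counts or 0.924 CPM, and in no cell of clone 4. This contrasts with its bulk level, where Wnt8a (median 14.03 FPKM) and Wnt3 (median 17.7 FPKM) were close in the 7 fPSC libraries. Genes with a bulk median of 10 to 25 FPKM were found in a median of 27.3% to 40% of cells by clone. The lowest 10% of such genes were found in fewer than 6.52% to 13.3% of cells. Wnt8a, at 0% to 4.35%, was below both shares in each clone. Wnt3 was above the lower share in each clone and near the median share, below it in clone 1 (21.7% against 28.3%). The single cells were counted by a method and depth of their own, and these shares are given beside the bulk levels without a test. Wnt3a was counted in 3 cells, all of clone 2, and Wnt5a and Wnt11 in 2 cells each. In clones 3 and 4 Wnt3a and Wnt11 were not among the genes listed, and were taken as 0. Wnt6, Wnt7b and Wnt9a were not listed in any clone and were taken as 0 of 181 cells. Whether an unlisted gene had no count is not stated. If so, a share of up to 1.66% of cells with a count is allowed by the limit of 3 counts. The exact 95% interval allows up to 2.02%. Thinned to 5000 counts a cell, Wnt3 was found in 14.4% of 167 cells, Wnt5b in 2.4% and Wnt8a in 0. Intervals and limits cover counting error only.

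**Figure D5:**
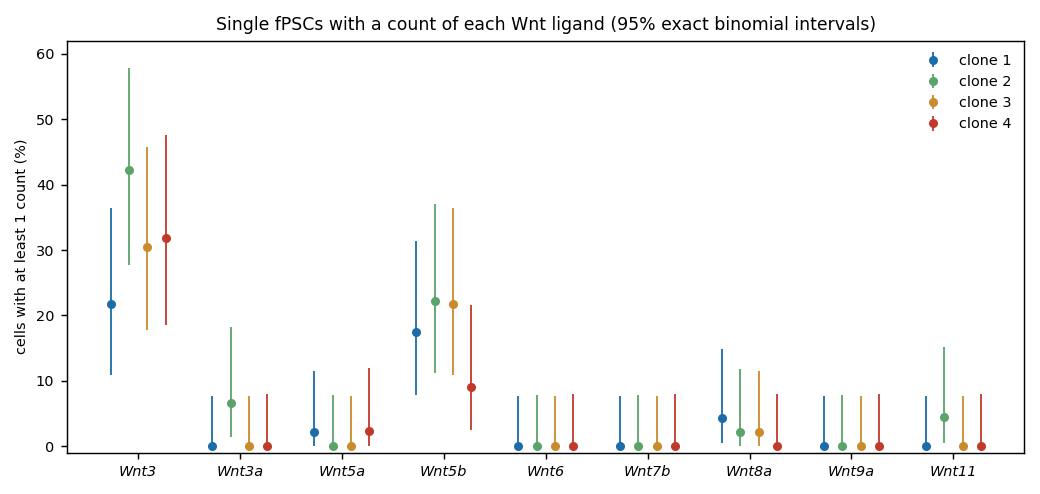
Share of single fPSCs with at least 1 count (vertical axis, percent) of each Wnt ligand (horizontal axis) in 4 clones; points are shares and bars are 95% exact binomial intervals over 44 to 46 cells. Wnt3 (21.7% to 42.2%) and Wnt5b (9.09% to 22.2%) stand above the other ligands, and Wnt8a lies between 0% and 4.35%. Ligands not listed in a clone are drawn at 0%.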

How the data were processed

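RNA-seq of 19 libraries was deposited by the authors as 1 table of FPKM, made with cutadapt 1.11, TopHat2 2.1.1 on Ensembl mouse cDNA (mm9) and Cufflinks 2.1.1. Of 23608 entries 4 with repeated names were left out. Read counts are not in this table, so no count test was run and depth was read only as a ratio between libraries. The 9 ligands and the gene lists were chosen with earlier results of these data known. The test was limma 3.58.1 (R 4.3.3, trend option) on log2(FPKM + 1) of the 12513 genes that reached 1 FPKM in 2 or more libraries of the fit. Simulated data with 200 changed genes were used to check this step. The changed genes were drawn from those with a mean log2(FPKM + 1) above 2. Recovery at lower levels, such as those of Wnt5a and Wnt11, was not measured. Of genes changed by 2 on the log2 scale, the step recovered 84.5% for EpiSCs against mESCs and 93% for fPSCs against mESCs, but of genes changed by 1 only 23% and 43.5%, and 19% for EpiLCs against mESCs. Groups follow the sample titles. All 9 ligands are named, with values for at most 3 genes of each pathway list and comparison (the largest changes past the threshold at a group mean of at least 5 FPKM) and others where they bear on a ligand, such as Col1a1, Sox17 and Wnt2, chosen after their values were seen.

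The ChIP-seq values deposited by the authors are RPKM in 100 bp bins after Bowtie2 2.2.2 on mm9. By the methods replicates were integrated, but each deposited file is attached to a single sample, so whether it pools them is open. Methylation was deposited by the authors as the fraction methylated (0 to 1) per 100 bp window, without coverage. Starts are those of GENCODE vM1 on NCBIM37. Chromosome ends of the 21 chromosomes in these files lay within the lengths of that assembly. Percentiles are given in place of z-scores, which a few very high bins dominate. Single-cell tables were deposited by the authors as raw counts per gene and cell from Drop-seq_tools. Whether they are molecules or reads is not stated, and doublets were not called, since cells were picked singly. Clones follow the column names. The primer list was not used. Alternatives were a pseudocount of 0.1, no filter, upper-quartile scaling, only the groups compared, subsets of fPSCs, a replicate block, each library left out, other windows round the start, all cells and cells thinned to 5000 counts. No comparison columns of the authors were in the files.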

Additional observations from a re-analysis of the deposited data

How the results depend on the processing

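Counts below are over all 7 ligands tested, those that entered through EpiSCs included, with 5 called in EpiSCs against mESCs, 5 in fPSCs against EpiSCs and 4 in EpiSCs against EpiLCs. They held within 1.5 times under a pseudocount of 0.1, no filter, upper-quartile scaling, only the groups compared and each subset of fPSCs, and the ligands called could differ by 1 or 2. With each library left out, the count ran from 0 to 1 in EpiLCs against mESCs, from 2 to 5 in EpiSCs against mESCs, from 1 to 5 in fPSCs against EpiSCs and from 1 to 5 in EpiSCs against EpiLCs. A lone library is there assumed to vary like the other groups, and Wnt5a, Wnt7b and Wnt9a go untested without either EpiSC library. The counts in fPSCs against mESCs stayed at 3. With no filter Wnt6 was called lower in fPSCs than in mESCs and EpiSCs. In the fit that gave 0 calls in EpiLCs against mESCs, 2 ligands had an unadjusted p under 0.05 by limma without mESCs replicate 1, and 1 without EpiLCs replicate 1. Changes that passed no test turned sign when a library was left out. In EpiLCs against mESCs the log2 change then ran from -0.00223 to 0.0217 for Wnt5a, from -0.378 to 0.136 for Wnt5b, from -0.357 to 0.0538 for Wnt7b and from -0.0118 to 0.351 for Wnt9a. It ran from -0.00772 to 0.506 for Wnt5b in EpiSCs against mESCs, from -0.207 to 0.156 for Wnt9a in fPSCs against mESCs, and from -0.226 to 0.808 for Wnt11 in fPSCs against EpiSCs. Wnt9a in fPSCs against mESCs was also 0.0230 with a pseudocount of 0.1 and 0.0373 with only the fPSCs labelled by line. Causes were not tested. The count of all genes called moved by over 1.5 times in fPSCs against EpiLCs (1728, but 3178 with only P10, P20 and P30, 2648 with only the fPSCs labelled by line, and 865 or 890 without an EpiLC library), in EpiLCs against mESCs (3706, but 2416 or 2291 without an mESC library), in fPSCs against EpiSCs (4041, but 2455 or 1523 without an EpiSC library) and in EpiSCs against EpiLCs (4488, but 2871 without EpiLCs replicate 2 and 2425 without EpiSCs replicate 2). Same-numbered replicates did not deviate together in all pairs (r = 0.204, -0.199 and -0.134), so the numbers were not taken as pairs. A fit with the replicate block called 2, 5 and 4 ligands in EpiLCs against mESCs, EpiSCs against mESCs and EpiSCs against EpiLCs, as without it. With the EpiSC numbers crossed, chosen after seeing the data, the latter counts were 5 and 6. The H3K4me3 count in the top 10% was 3 within 5 kb, 1 within 2 kb and 0 by the highest 1 kb mean, and that of H3K27me3 was 7 by each. Methylation was at or under 0.2 for 5 ligands within 2 kb. Thinned to 5000 counts, 14.4% of 167 cells had Wnt3, a lower share because fewer counts are drawn.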
